A study of Mus musculus with 10 samples.

Results

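Immediate early response genes are genes whose transcripts appear within minutes of a stimulus, without new protein synthesis. The set described here held 10 of them, which were taken by gene symbol from the 34590 genes listed in each of 10 bulk RNA-seq libraries of mouse cochlear cells: *Fos*, *Fosb*, *Jun*, *Junb*, *Jund*, *Egr1*, *Egr2*, *Atf3*, *Ier2* and *Ier3*. All 10 were among the 16891 genes that passed the filter on low counts. Fluorescent cells were picked by hand after enzymatic digestion and trituration of the cochlea, and each of 5 cell types was profiled in duplicate. By the study, the mean number of picked cells was smallest for OHCs (P22) and largest for IHCs, where it also varied most. The part of cell number in the levels below was not tested. SCs, the supporting cells that flank hair cells, came from Fgfr3-iCreER mice with a Rosa26 tdTomato reporter at P27 (replicate 12) and P26 (replicate 11), and were marked by tamoxifen. The cHCs, hair cell-like cells converted from SCs, came at P33 (replicates 13 and 16) from mice that carried the same alleles together with the Atoh1-HA transgene and the alpha9 AChR-EGFP reporter, so SCs and cHCs share Fgfr3-iCreER, the tdTomato allele and the tamoxifen. OHCs, the outer hair cells, came from prestin-YFP knock-in mice per the labels, at P7 (replicates 15 and 14) and as mature cells whose titles carry the ages 21 and 22. They are written below as OHCs (P7) and OHCs (P22), and the latter replicates are named by these ages. For OHCs (P7) the supplementary summary of mouse lines in the study names a tamoxifen-induced prestin Cre line with tdTomato in place of the prestin-YFP allele. The difference between these sources could not be settled. IHCs, the inner hair cells, came from mice with Pval-Cre and the Rosa26 tdTomato allele, in replicates whose titles carry 74 and 75, and in this line OHCs are labeled weakly. Every library was made from dissociated cells and none from intact tissue, so transcripts present in the cochlea and transcripts made during digestion and picking cannot be told apart.

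The products of *Fos*, *Fosb*, *Jun*, *Junb* and *Jund* are leucine zipper proteins that pair with each other to form the transcription factor AP-1. *Egr1* and *Egr2* encode zinc finger transcription factors, *Atf3* encodes a stress-induced leucine zipper factor, *Ier2* encodes a short-lived nuclear protein, and *Ier3* encodes a regulator of survival signaling. Calcium entry, growth factors and injury reach these genes through kinases that phosphorylate CREB and the serum response factor partners already bound at their promoters, and the transcripts decay quickly once the stimulus ends. Tissue dissociation at warm temperature is a known inducer of many immediate early genes.

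The DNA just before the transcription start is where CREB-type and AP-1-type factors are known to act on these genes, and 5 such windows are shown because they belong to the Fos and Jun genes whose levels are described first. Each window is the 130 bases before the start as annotated by RefSeq (GRCm38.p6), placed by exact match on mm9, the build to which the reads were mapped. Capitals mark the letters TGACG, the half-site of the cAMP response element, which was searched on both strands (CGTCA on the reverse).
Fos, chr12:86814710-86814839, plus strand: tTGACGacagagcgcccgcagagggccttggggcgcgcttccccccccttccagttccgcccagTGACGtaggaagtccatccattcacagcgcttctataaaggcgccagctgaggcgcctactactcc
Fosb, chr7:19895395-19895524, minus strand: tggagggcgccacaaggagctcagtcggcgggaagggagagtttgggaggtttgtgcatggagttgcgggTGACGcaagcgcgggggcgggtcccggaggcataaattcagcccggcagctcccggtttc
Junb, chr8:87502648-87502777, minus strand: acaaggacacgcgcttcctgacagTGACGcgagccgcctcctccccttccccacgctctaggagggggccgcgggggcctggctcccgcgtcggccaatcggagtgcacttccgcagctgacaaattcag
Jun, chr4:94718914-94719043, minus strand: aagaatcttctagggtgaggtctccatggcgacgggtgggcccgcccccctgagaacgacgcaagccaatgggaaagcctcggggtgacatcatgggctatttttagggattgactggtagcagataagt
Jund, chr8:73221508-73221637, plus strand: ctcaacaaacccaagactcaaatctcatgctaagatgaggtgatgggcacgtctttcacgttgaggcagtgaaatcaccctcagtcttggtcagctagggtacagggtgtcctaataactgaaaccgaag
In *Fos* the half-site began 129 and 66 bases before the start, and the letters TATAAA began 33 bases before it. The half-site began 60 bases before the start in *Fosb* and 106 bases before it in *Junb*, and the *Jun* and *Jund* windows held none, so 3 of the 5 windows held it. Of all 32851 RefSeq promoter windows of this length, 12.2% held the half-site. A wider search, for TATAAA or TATATA on either strand, matched 8.57% of them. The AP-1 site (TGACTCA or TGAGTCA) and the CArG box of serum response factor were searched too. They matched 0 of the 5 windows, beside 2.49% and 0.81% of all windows. Among windows not shown, that of *Atf3* held 1 half-site and that of *Ier3* 0. Some *Egr2* windows held the half-site and the CArG box.

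By the GENCODE annotation of mm9, *Fos* (ENSMUSG00000021250) lies on chromosome 12 from 86814840 to 86818223, and *Fosb* (ENSMUSG00000003545) lies on chromosome 7 from 19888070 to 19895394. *Jun* (ENSMUSG00000052684) lies on chromosome 4 from 94715725 to 94718913, *Junb* (ENSMUSG00000052837) on chromosome 8 from 87500811 to 87502617, and *Jund* (ENSMUSG00000071076) on chromosome 8 from 73221638 to 73224515. *Ier2* (ENSMUSG00000053560), a gene of 1 exon, lies on chromosome 8 from 87185230 to 87186751, and *Egr2* (ENSMUSG00000037868) on chromosome 10 from 66998223 to 67004936. *Atf3* (ENSMUSG00000026628) lies on chromosome 1 from 192994175 to 193007219, and *Ier3* (ENSMUSG00000003541) on chromosome 17 from 35958629 to 35959868. All 10 are protein-coding genes.

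The libraries held from 15016129 to 40518766 reads on genes, so that 3 counts, taken as the smallest level that a library can show, corresponded to 0.0740 to 0.200 CPM before scaling. This floor covers counting error only, because amplified reads are not independent molecules. Levels are given below as CPM, the counts scaled to a common library size with TMM factors, in the order of the replicates given above. The hair cell markers *Myo6*, *Myo7a*, *Pou4f3*, *Gfi1* and *Otof* were all at 1 CPM or more in every cHC, OHC and IHC library, the OHC marker *Slc26a5* was highest in OHCs (P22), and the IHC marker *Slc17a8* was highest in IHCs. SCs, cHCs and OHCs (P7) have library numbers from 11 to 16 and the other cell types much higher numbers, so in a contrast across these numbering series cell type and series cannot be told apart. In 4 of the 10 records the deposited counts belonged to a different sample, and each library was therefore identified as described in the processing section.

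Taken as a sum, transcripts of the 10 genes were abundant in SCs and scarce in OHCs (P22). Their share of the counts was 0.161% in SC replicate 12 and 0.561% in SC replicate 11, then 0.101% and 0.109% in cHCs, 0.0189% and 0.0197% in the OHC (P7) libraries, 0.00270% and 0.00250% in the OHC (P22) libraries, and 0.0563% and 0.256% in the IHC libraries. The ranges of SCs, cHCs, OHCs (P7) and OHCs (P22) did not overlap, whereas the IHC libraries spanned the cHC values and part of the SC range. *Egr1* took 56.4% and 46.4% of these counts in SCs and 21.5% and 5.99% in OHCs (P22). In OHCs (P22) *Egr2* had 266 of the 526 counts in the replicate labelled 21, and *Jund* had 336 of the 534 in the one labelled 22. For 7 of the 10 genes, namely *Fos*, *Fosb*, *Jun*, *Junb*, *Jund*, *Egr1* and *Ier2*, the mean CPM followed 1 order, from SCs through IHCs, cHCs and OHCs (P7) to OHCs (P22). Between neighbors in that order, none of the 10 genes passed the edgeR quasi-likelihood test at an FDR under 0.05, as detailed below. Compared between genes per kilobase of annotated exon, the mean level in SCs was highest for *Egr1* (599 CPM per kb), followed by *Jun* (277), *Fos* (215), *Ier2* (102), *Fosb* (69.1), *Junb* (44.3), *Jund* (18.7), *Egr2* (7.04), *Atf3* (3.85) and *Ier3* (0.667).

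**Figure D1:**
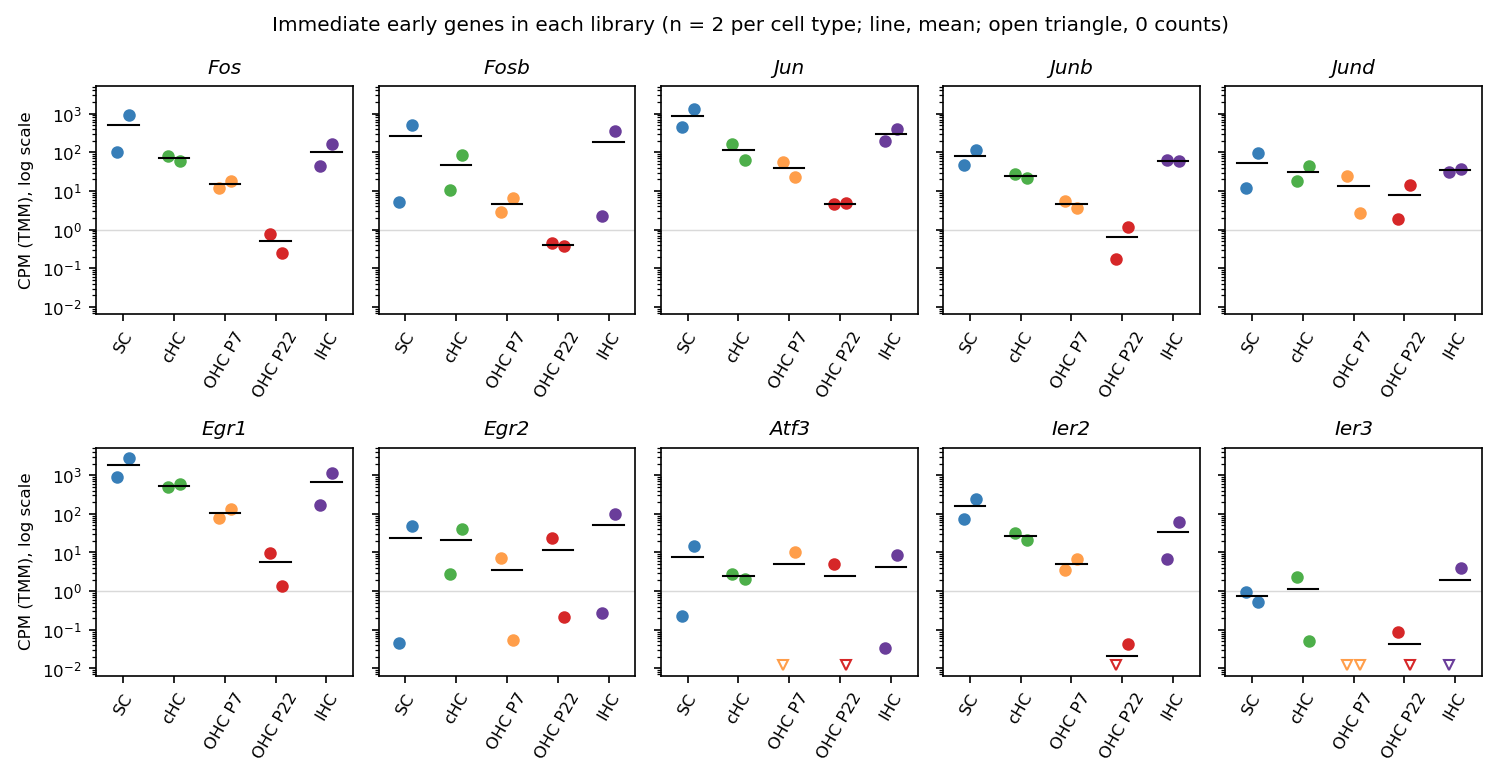
CPM (TMM-scaled, log scale) of each of the 10 immediate early genes in every library, by cell type, with n = 2 libraries each. Lines mark the mean and open triangles mark libraries with 0 counts. *Fos*, *Jun*, *Junb*, *Egr1* and *Ier2* step down from SCs to OHCs (P22), whereas the duplicates of *Egr2* and *Atf3* lie far apart in most cell types.

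*Fos* had 102 and 907 CPM in SCs, 82.6 and 60.7 CPM in cHCs, 12.3 and 18.1 CPM in OHCs (P7), 0.793 and 0.253 CPM in OHCs (P22), and 45.2 and 161 CPM in IHCs. Both OHC (P22) libraries were below every other library, with 9 and 6 counts. The *Fos* mean was 505 ± 570 CPM (SD, n = 2) for SCs, whereas OHCs (P22) had a mean of 0.523 ± 0.382 CPM. *Fosb*, which encodes a close relative of Fos, had 5.24 and 513 CPM in SCs, 10.4 and 86.1 CPM in cHCs, 2.82 and 6.47 CPM in OHCs (P7), 0.441 and 0.379 CPM in OHCs (P22), and 2.29 and 363 CPM in IHCs. The OHC (P22) libraries were again the lowest, but the SC and IHC duplicates differed so much that the remaining cell types overlapped with them.

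*Jun*, of the 3 Jun genes the one with the highest level per kilobase in SCs, had 464 and 1303 CPM in SCs, 163 and 64.0 CPM in cHCs, 57.4 and 23.3 CPM in OHCs (P7), 4.50 and 4.97 CPM in OHCs (P22), and 201 and 401 CPM in IHCs. Every cell type was separate from every other for this gene. *Junb*, whose product can restrain Jun, had 46.2 and 114 CPM in SCs, 27.1 and 21.7 CPM in cHCs, 5.44 and 3.57 CPM in OHCs (P7), 0.176 and 1.14 CPM in OHCs (P22), and 63.9 and 58.7 CPM in IHCs. Here the IHC values lay between the SC values, and the OHC (P22) values were the lowest, with 2 and 27 counts. *Jund*, the member of the Jun family that is usually expressed without a stimulus, had 11.7 and 96.0 CPM in SCs, 18.5 and 43.1 CPM in cHCs, 24.3 and 2.67 CPM in OHCs (P7), 1.94 and 14.2 CPM in OHCs (P22), and 31.6 and 36.7 CPM in IHCs. Its cell types overlapped, except that both OHC (P22) libraries were below both cHC and both IHC libraries and both OHC (P7) libraries were below both IHC libraries.

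*Egr1* had 911 and 2802 CPM in SCs, 500.0 and 579 CPM in cHCs, 77.5 and 129.6 CPM in OHCs (P7), 9.96 and 1.35 CPM in OHCs (P22), and 166 and 1134 CPM in IHCs. The cHC duplicates were close, the IHC duplicates straddled them, and the OHC (P22) libraries were the lowest. *Egr2* had 0.0444 and 47.8 CPM in SCs, 2.85 and 40.3 CPM in cHCs, 7.18 and 0.0546 CPM in OHCs (P7), 23.5 and 0.211 CPM in OHCs (P22), and 0.269 and 102 CPM in IHCs. In every cell type 1 library held most of the *Egr2* level, and all cell types overlapped. The values of 0.0444 CPM in SCs and 0.0546 CPM in OHCs (P7) rested on 1 and 2 counts.

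*Ier2* had 75.2 and 235 CPM in SCs, 32.9 and 21.7 CPM in cHCs, 3.42 and 6.60 CPM in OHCs (P7), 6.87 and 60.3 CPM in IHCs, and 0 and 1 counts in OHCs (P22). *Ier3* had 0.977 and 0.531 CPM in SCs, 2.26 and 0.0508 CPM in cHCs, 0 counts in both OHC (P7) libraries, 0.0882 CPM and 0 counts in OHCs (P22), and 0 counts and 3.92 CPM in IHCs, where the latter rested on 114 counts. *Atf3* had 0.222 and 15.1 CPM in SCs, 2.77 and 2.03 CPM in cHCs, 0 counts and 10.2 CPM in OHCs (P7), 5.03 CPM and 0 counts in OHCs (P22), and 0.0337 and 8.42 CPM in IHCs. No pair of cell types was separate for *Atf3*. Its 0.0337 CPM in IHCs rested on 1 count. For *Ier3*, 0.0508 CPM in cHCs rested on 2 counts and 0.0882 CPM in OHCs (P22) on 1. The count of 0 allows up to 0.200 CPM in OHC (P7) replicate 15, 0.0804 CPM in replicate 14, 0.154 and 0.140 CPM in the OHC (P22) replicates labelled 21 and 22, and 0.110 CPM in the IHC replicate labelled 74, all before scaling.

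The question of whether a gene differed over the 5 cell types was asked in edgeR by a quasi-likelihood F-test in a model of all 10 libraries, with p values adjusted by Benjamini and Hochberg's method over the 16891 genes. *Jun* (FDR = 0.00197), *Fos* (FDR = 0.00509), *Ier2* (FDR = 0.00779), *Egr1* (FDR = 0.0121) and *Junb* (FDR = 0.0189) passed an FDR of 0.05 in the joint edgeR test, which is 5 of the 10 genes, beside 7.81% of all genes tested. *Fosb* did not pass (edgeR FDR = 0.114), nor did *Ier3* (0.413), *Jund* (0.552), *Egr2* (0.867) and *Atf3* (0.988). The titles give different ages for the duplicates of SCs, OHCs (P22) and IHCs, but do not say whether those of cHCs and OHCs (P7) came from separate animals. The study calls all of them biological duplicates, and the p values measure the spread between these libraries.

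In OHCs (P22) compared with SCs, 5 of the 10 genes were lower at an FDR under 0.05, beside 4.0% of all genes tested, and none was higher. These cell types belong to different numbering series. *Fos* was lower by a log2 fold change of -9.98 (SE 1.38, edgeR FDR = 0.00160), *Egr1* by -8.37 (SE 1.30, edgeR FDR = 0.00309), *Jun* by -7.54 (SE 0.91, edgeR FDR = 0.000709) and *Junb* by -6.87 (SE 1.24, edgeR FDR = 0.00664). *Ier2* also passed (edgeR FDR = 0.00204). Its fold change rests on 1 count in OHCs (P22), and the ratio of its pooled levels, SCs over OHCs (P22), was 6829 with an exact 95% interval of 1225 to 269769 that covers counting error only. *Fosb* missed the threshold with a log2 fold change of -9.30 (SE 2.65, edgeR FDR = 0.0553), although both OHC (P22) libraries were below both SC libraries. The median log2 fold change of the 10 genes was -7.21, beside 0.00 for all genes tested, and all 10 had a negative value. DESeq2 called 6 genes in this comparison, and limma-voom called 2, *Ier2* and *Junb*. Over all 16891 genes tested, in either direction, DESeq2 called 4156 and limma-voom 1897. Such numbers for the other comparisons are given with the alternatives below.

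The comparison of OHCs (P22) with cHCs asks how converted cells differ from mature OHCs. *Fos* (log2 fold change -7.16, SE 1.24, edgeR FDR = 0.0124), *Egr1* (-6.59, SE 1.21, edgeR FDR = 0.0149), *Jun* (-4.58, SE 0.80, edgeR FDR = 0.0124) and *Junb* (-5.16, SE 1.15, edgeR FDR = 0.0345) were lower in OHCs (P22), as was *Ier2* (edgeR FDR = 0.0115), whose pooled level was 1258 times as high in cHCs with an exact 95% interval of 226 to 49733. These are 5 of the 10 genes, beside 2.02% of all genes tested that were lower in OHCs (P22). The median over the 10 genes was -4.95, beside -0.19 for all genes tested. Without the OHC (P22) replicate labelled 21, or in a fit of the cHC and OHC (P22) libraries alone, the number of genes called was 2, *Fos* and *Egr1*, and limma-voom called *Ier2* alone.

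IHCs and OHCs (P22) are both mature hair cells and their libraries belong to the same series. Their ages and mouse lines differ, and neither can be told apart from cell type. The titles also carry the letter m before both IHC ages and before 21, and f before 22. In IHCs *Fos* was higher by a log2 fold change of 7.69 (SE 1.27, edgeR FDR = 0.0193), *Egr1* by 6.86 (SE 1.22, edgeR FDR = 0.0252), *Junb* by 6.49 (SE 1.22, edgeR FDR = 0.0305) and *Jun* by 5.99 (SE 0.85, edgeR FDR = 0.00886). *Ier2* passed too (edgeR FDR = 0.0195), with a ratio of pooled levels of 1486 and an exact 95% interval of 266 to 58734. Thus 5 of the 10 genes were higher in IHCs, beside 0.977% of all genes tested. The median was 6.24, beside 0.03 for all genes tested. Without the OHC (P22) replicate labelled 21 only *Egr1* was called, with a fit of the IHC and OHC (P22) libraries alone only *Jun*, and with limma-voom only *Junb*. The comparisons of OHCs (P22) with SCs, cHCs and IHCs share the OHC (P22) libraries and are not independent of each other.

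**Figure D2:**
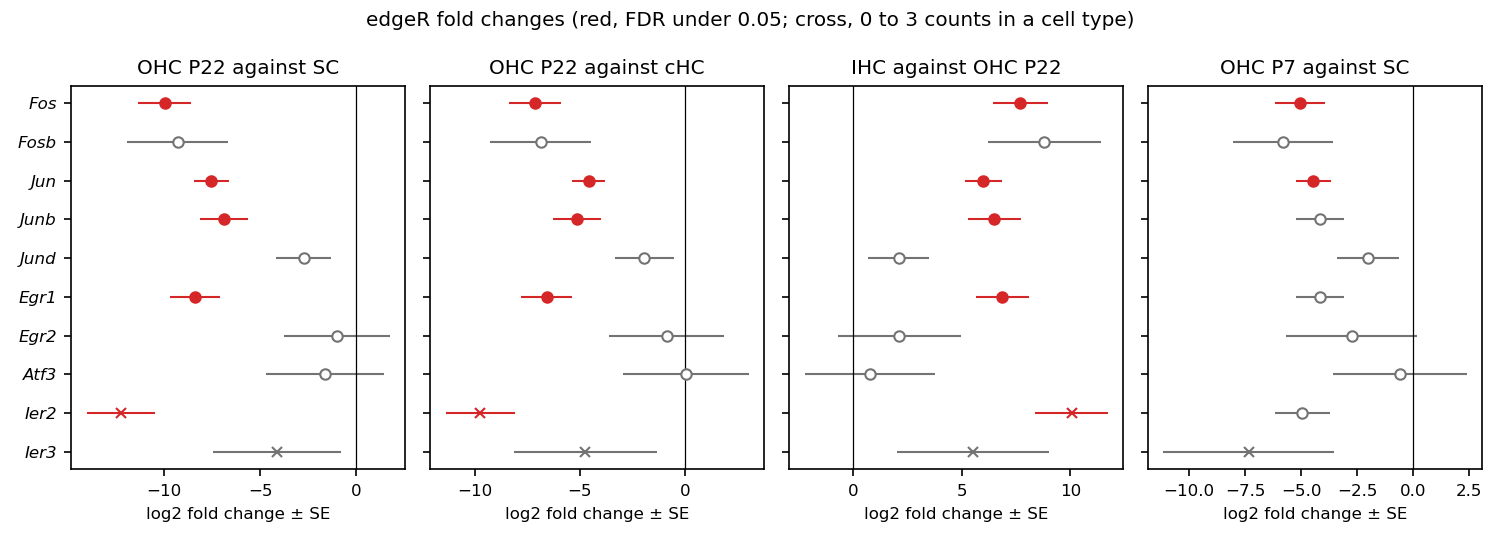
Log2 fold change (edgeR, horizontal axis, ± SE) of each immediate early gene in the comparisons in which any of them was called, with n = 2 libraries per cell type. Red marks an FDR under 0.05 and crosses mark fits that rest on 0 to 3 counts in a cell type. *Fos*, *Jun*, *Junb*, *Egr1* and *Ier2* are red in the panels with OHCs (P22), and *Fos* and *Jun* are red in OHCs (P7) against SCs.

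SCs and OHCs (P7) belong to the same series of libraries. *Fos* (log2 fold change -5.05, SE 1.10, edgeR FDR = 0.0303) and *Jun* (-4.45, SE 0.79, edgeR FDR = 0.0110) were lower in OHCs (P7), which is 2 of the 10 genes, beside 0.853% of all genes tested. *Ier2* (-4.95, SE 1.23, edgeR FDR = 0.0549), *Egr1* (-4.16, SE 1.07, edgeR FDR = 0.0627) and *Junb* (-4.15, SE 1.08, edgeR FDR = 0.0659) missed the threshold. The median over the 10 genes was -4.31, or -4.16 when *Ier3*, which had 0 counts in OHCs (P7), was set at its floor of 3 counts over both libraries, beside 0.00 for all genes tested. The number called was 1, *Jun*, without SC replicate 11, without OHC (P7) replicate 15 or without OHC (P7) replicate 14. It was 4 or 5 without any other single library and 6 with DESeq2.

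In the other comparisons 0 of the 10 genes passed in edgeR. Between OHCs (P22) and OHCs (P7), both OHC (P22) libraries were below both OHC (P7) libraries for 6 of the 10 genes, beside 23.6% of all genes tested, and 5 of the 10 had an unadjusted p under 0.05, beside 13.9% of all genes tested. The smallest FDRs were those of *Ier2* (0.0735), *Fos* (log2 fold change -4.93, SE 1.14, edgeR FDR = 0.0942), *Jun* (-3.09, SE 0.75, edgeR FDR = 0.105) and *Egr1* (-4.21, SE 1.08, edgeR FDR = 0.126), where 0.551% of all genes passed in either direction. DESeq2 called 5 genes, limma-voom 0, and edgeR up to 3 when single libraries were left out. Between cHCs and SCs, both cHC libraries were below both SC libraries for 5 of the 10 genes, beside 20.4% of all genes tested. *Jun* had a log2 fold change of -2.96 (SE 0.74, edgeR FDR = 0.0791) and *Fos* of -2.82 (SE 0.99, edgeR FDR = 0.230), 3 of the 10 genes had an unadjusted p under 0.05, beside 15% of all genes tested, and 1.84% of all genes passed the FDR. DESeq2 and limma-voom each called 1 gene here, *Jun*, and edgeR called it when SC replicate 12, either OHC (P7) replicate or either IHC replicate was left out.

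Between OHCs (P7) and cHCs, both OHC (P7) libraries were lower for 7 of the 10 genes, beside 23.8% of all genes tested, and 4 of the 10 had an unadjusted p under 0.05, beside 11.2% of all genes tested. The smallest edgeR FDR was 0.423, that of *Junb* and *Egr1*, and 0.343% of all genes passed. DESeq2 called 1 gene while limma-voom called 0, beside 1123 and 378 of all 16891 genes tested. Between IHCs and OHCs (P7), 6 of the 10 genes had an unadjusted p under 0.05, beside 12.5% of all genes tested, and the smallest FDR was 0.157 for *Jun*, whose log2 fold change was 2.90 (SE 0.73), where 0.379% of all genes passed. DESeq2 called 3 genes in this comparison and limma-voom called 0, beside 1327 and 367 of all genes tested. Between IHCs and SCs, 2 genes, *Fos* and *Jun*, had an unadjusted p under 0.05, beside 17.4% of all genes tested, and 2.65% of all genes passed the FDR. Between IHCs and cHCs, 0 of the 10 genes had an unadjusted p under 0.05, beside 12.8% of all genes tested, and 0.924% of all genes passed the FDR. DESeq2 and limma-voom called 0 of the 10 genes between IHCs and SCs or cHCs.

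The sum over markers of SCs was also lowest in OHCs (P22). The summed level of 7 markers of SCs, namely *Sox2*, *Sox9*, *Fgfr3*, *Gjb2*, *Hes1*, *Jag1* and *Prox1*, was 1005 and 1649 CPM in SCs, 1039 and 820 CPM in cHCs, 88.6 and 298 CPM in OHCs (P7), 7.85 and 4.46 CPM in OHCs (P22), and 785 and 626 CPM in IHCs. All 7 were at 1 CPM or more in both SC and both cHC libraries and in the IHC replicate labelled 74, 6 in the one labelled 75, 5 and 6 in OHCs (P7), and 3 and 2 in OHCs (P22), where *Sox2* had 0 counts in both libraries. *Sox2*, *Sox9*, *Gjb2* and *Jag1* were lower in both OHC (P22) libraries than in any other library, whereas *Fgfr3*, *Hes1* and *Prox1* were not. In IHCs *Gjb2*, at 611 and 468 CPM, was above both SC libraries and the other markers were below both. In cHCs *Fgfr3* and *Prox1* were above both SC libraries and the other markers were below both. The part of these markers in the levels of the immediate early genes was not tested. The summed level of the 5 fibroblast markers was 3.09 and 3.37 CPM in OHCs (P22) and 16.4 to 812 CPM elsewhere. *Lum* had 684 and 716 CPM of the SC sums of 705 and 812 CPM. *Dcn* and *Lum* were at 0 in both OHC (P22) libraries and in no other. *Col3a1* was at 0 there and also in SC replicate 11, cHC replicate 16, OHC (P7) replicate 14 and both IHC libraries. *Col1a1* had 2.91 and 3.28 CPM in OHCs (P22) and 0.711 and 0 CPM in SCs, and *Col1a2* had 0.176 and 0.0842 CPM and 1.29 and 0 CPM. Of 8 markers of macrophages and other leukocytes, at most 2 reached 1 CPM in any library, and *C1qc* was at 0 in all of them. The 4 markers of Schwann cells and glia summed to 82.5 and 20.9 CPM in OHCs (P22) and to 0.300 to 127 CPM elsewhere, and those of endothelium to at most 2.08 CPM in any library. The part of these other cell types was not tested either. The share of reads in rows that name no gene was 72.1% and 66.8% in OHCs (P22) and 44.2% to 60.1% in the other libraries, and its part in these levels was not tested. In bulk samples, fewer cells of a kind and less RNA per cell cannot be told apart.

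**Figure D3:**
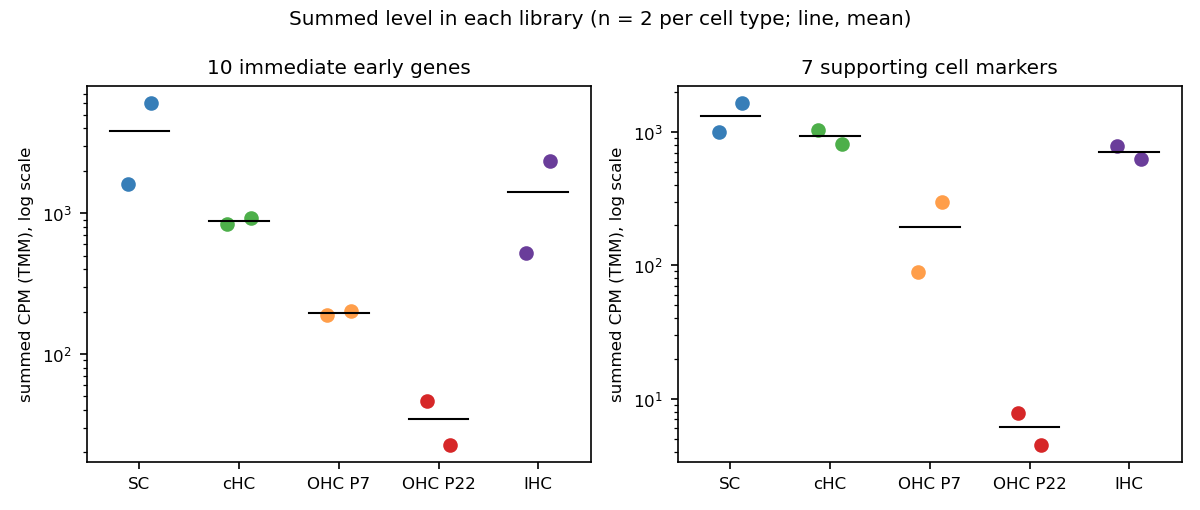
Summed CPM (TMM-scaled, log scale) of the 10 immediate early genes (left) and of the 7 SC markers (right) in each library, with n = 2 per cell type and lines at the mean. Both sums are lowest in OHCs (P22), at 46.4 and 22.5 CPM for the immediate early genes and at 7.85 and 4.46 CPM for the SC markers.

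By the median, the duplicates of SCs and of IHCs differed more in these genes than over all genes tested. In SCs 9 of the 10 genes were higher in replicate 11 than in replicate 12, with a median absolute log2 ratio of 2.33, beside 1.05 for all genes tested. In IHCs 9 of the 10 genes were higher in the replicate labelled 75 than in the one labelled 74, with a median of 2.94, beside 0.94 for all genes tested. The exceptions were *Ier3* in SCs and *Junb* in IHCs. The median was 0.91 in cHCs, beside 1.03, and 1.05 in OHCs (P7), beside 0.89. It was 1.84 in OHCs (P22), beside 1.34, where *Fos*, *Fosb*, *Junb*, *Ier2* and *Ier3* had 1 to 29 counts over both libraries. *Egr2* was the gene with the widest gap in SCs, OHCs (P22) and IHCs, with log2 ratios of 8.65, 6.37 and 8.21. The lower library of each pair held 1, 5 and 8 *Egr2* counts, in this order. These ratios are on the scale of log2 CPM with a prior count of 2, and all 10 genes of a library share its cells and its amplification.

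**Figure D4:**
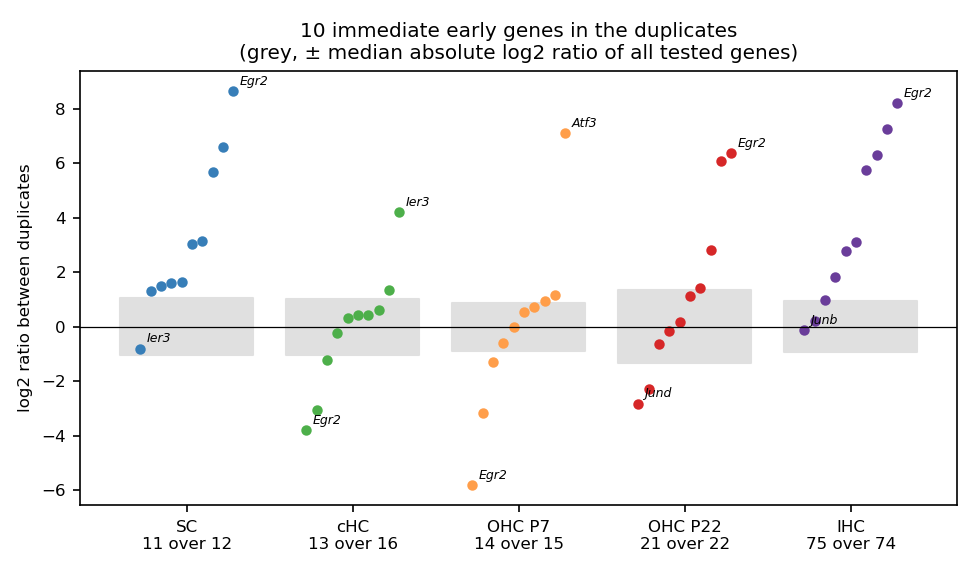
Log2 ratio between the duplicates of each cell type (vertical axis, prior count 2) for the 10 immediate early genes, 1 point per gene, with the replicate named first on the horizontal axis as the numerator. Grey spans plus and minus the median absolute log2 ratio of all genes tested. In SCs and IHCs 9 of the 10 points lie above 0, and the median absolute log2 ratios are 2.33 and 2.94.

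Across the 10 libraries the levels of *Fos*, *Egr1*, *Ier2* and *Jun* moved closely together, with Pearson's r between 0.91 and 0.98 for log2 CPM. *Junb* followed *Jun* (r = 0.95), whereas *Egr2* and *Atf3* followed the others loosely, with median r values of 0.32 and 0.42. The points of these correlations share cell types, libraries and depth, and are a description of 10 libraries. The genes outside the set with the closest pattern to its mean were *Rreb1* (r = 0.90), *Errfi1* (r = 0.90), *Fasn* (r = 0.89), *Cd82* (r = 0.89) and *Tubb4b* (r = 0.89), among genes with a mean log2 CPM of at least 5. *Errfi1*, which encodes a feedback inhibitor of the EGF receptor, had 137 and 310.2 CPM in SCs, 92.4 and 94.6 CPM in cHCs, 60.4 and 49.4 CPM in OHCs (P7), 11.4 and 28.01 CPM in OHCs (P22), and 43.9 and 119 CPM in IHCs. *Fasn*, which encodes fatty acid synthase, had 235 and 1683 CPM in SCs against 21.7 and 4.46 CPM in OHCs (P22).

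Of 36 other immediate early genes, 34 passed the filter, and 8 of these were lower in OHCs (P22) at an FDR under 0.05 when set against SCs, beside 4.0% of all genes tested, and none was higher. For *Zfp36l1*, which encodes an mRNA decay factor, levels of 111 and 514 CPM in SCs stood against 2.82 and 1.94 CPM in OHCs (P22), with a log2 fold change of -7.04 (SE 1.43, edgeR FDR = 0.0126). *Dusp1*, which encodes a phosphatase that switches off MAP kinases, had 477 and 1223 CPM in SCs, 10.5 and 45.9 CPM in OHCs (P7), and 30.0 and 5.77 CPM in OHCs (P22). It was lower than in SCs in OHCs (P22) (-5.58, SE 1.14, edgeR FDR = 0.0131) and in OHCs (P7) (-4.91, SE 1.11, edgeR FDR = 0.0362). The zinc finger gene *Klf6* had 131 and 364 CPM in SCs, 1.28 and 7.64 CPM in OHCs (P7), and 6.08 and 11.0 CPM in OHCs (P22). Its log2 fold changes from SCs were -4.86 (SE 1.10, edgeR FDR = 0.0218) in OHCs (P22) and -5.78 (SE 1.15, edgeR FDR = 0.0199) in OHCs (P7).

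*Errfi1* was lower in OHCs (P22) than in SCs by -3.50 (SE 0.78, edgeR FDR = 0.0204) on the log2 scale and *Btg2*, which encodes an antiproliferative factor, by -6.81 (SE 1.58, edgeR FDR = 0.0240). The remaining 2 of the 8, *Zfp36* (edgeR FDR = 0.0317) and *Gadd45b* (edgeR FDR = 0.0495), fell outside the rule for named genes and complete the count. *Ctgf*, which encodes a matrix-associated growth factor, had 111 and 15.5 CPM in SCs, 2.66 and 4.91 CPM in IHCs, 0 counts in both OHC (P7) libraries and 1 count in the OHC (P22) libraries together. It passed in OHCs (P22) (edgeR FDR = 0.0458) and in OHCs (P7) (edgeR FDR = 0.0471). Outside this comparison, 3 of the 34 genes were called, all lower, in OHCs (P7) against SCs, beside 0.853% of all genes tested. In each other pair of cell types 0 were called, 2 to 18 had an unadjusted edgeR p under 0.05, limma-voom called 0 to 5 and DESeq2 2 to 15. IHCs against cHCs gave the lower ends and OHCs (P22) against cHCs the upper ends. Over all 16891 genes tested these 2 pairs had 2161 and 3257 genes with an unadjusted p under 0.05. Limma-voom called 738 and 930 of all genes there, and DESeq2 1378 and 2720. The joint test gave 4 of the 34, beside 7.81% of all genes tested. The median log2 fold change of the list in OHCs (P22) against SCs was -3.91, or -3.73 with genes that had 0 counts in a cell type at their floor, beside 0.00 for all genes tested. Without the OHC (P22) replicate labelled 21 the count of 8 became 3, it was 5 without SC replicate 11 or the OHC (P22) replicate labelled 22, it was 13 without the IHC replicate labelled 75, and it was 16 with DESeq2 and 5 with limma-voom.

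Of 14 other AP-1 and related leucine zipper genes, 11 passed the filter, and *Atf5*, a stress-responsive factor, was the only 1 called, with 18.4 and 32.7 CPM in SCs and 0 and 4 counts in OHCs (P22) (log2 fold change -8.02, SE 2.07, edgeR FDR = 0.0382). *Atf5* had 0.511 and 2.31 CPM in cHCs, 8.06 and 12.1 CPM in OHCs (P7), and 12.7 and 6.94 CPM in IHCs. In OHCs (P22) against SCs 8.02% of all genes tested were called in either direction, so that 1 of 11 is near the background. DESeq2 called 4 genes of the list and limma-voom 1, where they called 4156 and 1897 of all 16891 genes tested. The median of this list in OHCs (P22) against SCs was -1.16, or -1.18 with genes at 0 counts in a cell type at their floor. Of 20 upstream regulators and feedback inhibitors, 18 passed the filter and *Mapk3*, which encodes the kinase ERK1, was called, lower in OHCs (P22) than in SCs by -3.39 (SE 0.77, edgeR FDR = 0.0215) on the log2 scale, from 151 and 277 CPM to 13.7 and 27.2 CPM. That is 1 of 18, again near the background, where DESeq2 called 4 and limma-voom 2. The median of that list was 0.09. Whether either list differs from the immediate early genes was not tested.

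Of 8 heat shock genes, which are also induced by stress, 3 were called in OHCs (P22) against SCs, beside 8.02% of all genes tested, and not all in the same direction. *Dnajb1*, a cochaperone gene, was lower by -2.68 (SE 0.64, edgeR FDR = 0.0277) and *Bag3*, another, by -4.01 (SE 1.10, edgeR FDR = 0.0491), whereas *Hsph1*, which encodes a nucleotide exchange factor, was higher by 2.21 (SE 0.48, edgeR FDR = 0.0170) on the log2 scale. *Dnajb1* had 376 and 1617 CPM in SCs and 100.5 to 200 CPM in all other libraries, and was also lower than in SCs in OHCs (P7) (-3.04, SE 0.65, edgeR FDR = 0.0281) and in cHCs (-3.30, SE 0.66, edgeR FDR = 0.0286). *Hsph1* had 80.2 and 143 CPM in SCs and 232 to 605 CPM in all other libraries, and was higher in OHCs (P7) than in SCs by 2.34 (SE 0.48, edgeR FDR = 0.0230). The summed level of the 8 heat shock genes was 2267 and 4625 CPM in SCs against 2535 and 3080 CPM in OHCs (P22). Their median log2 fold change was -3.34. DESeq2 called 5 of them and limma-voom 1, beside 4156 and 1897 of all 16891 genes tested.

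**Figure D5:**
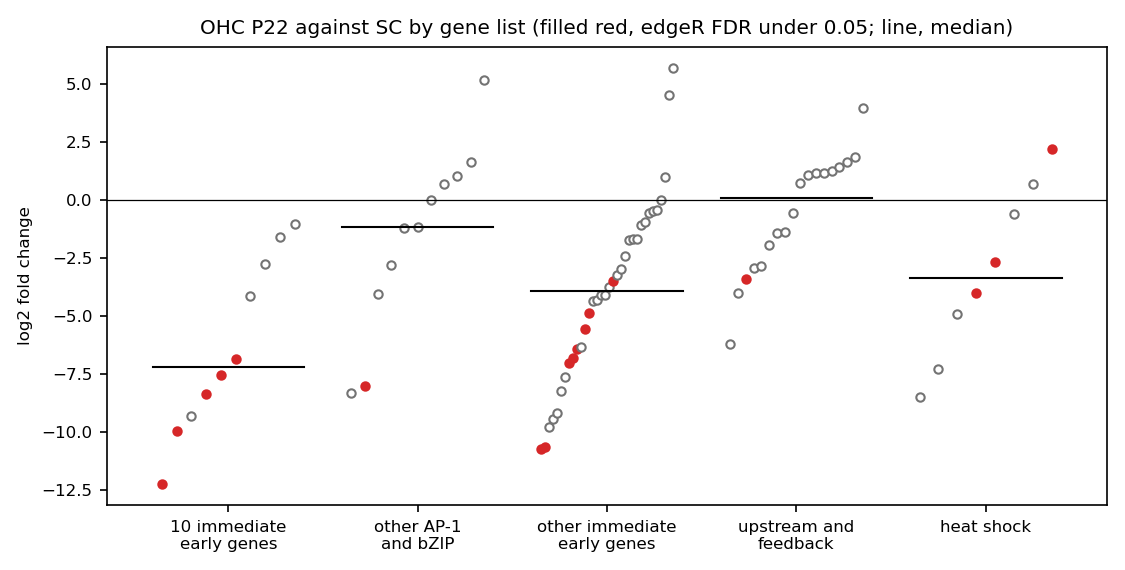
Log2 fold change (edgeR) in OHCs (P22) against SCs for the 10 immediate early genes and the genes of 4 further lists that passed the filter, 1 point per gene, with red for an FDR under 0.05 and lines at the medians. The medians are -7.21 for the 10 genes, -1.16 for other AP-1 and leucine zipper genes, -3.91 for other immediate early genes, 0.09 for upstream and feedback genes and -3.34 for heat shock genes.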

How the data were processed

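Total RNA from handpicked cells was copied and amplified by single primer isothermal amplification and sequenced as paired-end reads. The authors used CASAVA 1.7 for base calls and Cutadapt for adapters, then STAR followed by BWA on mm9, and HTSeq gave a number of reads per gene. What they deposited for 10 libraries was this raw count per gene symbol, with no normalization. The 5 rows per file that name no gene stayed out of library sizes and took 44.2% to 72.1% of reads. Whether counting used strand is not given in the sources used here.

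The file of each library was settled by its constant ratio to the CPM columns of the supplementary table of the study, over genes with at least 10 counts (coefficient of variation under 1%), and by its name. In 4 of 10 records the attached file was that of another sample, and the attached files were kept as an alternative.

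Counts were tested with edgeR 4.0.16 in R 4.3.3 (TMM factors, filterByExpr, 1 quasi-likelihood model of 10 libraries, common dispersion 1.12, 2-sided). Each SE is the absolute log2 fold change over the root of the F statistic. The study used limma-voom. Alternatives were DESeq2 1.42.0 (without outlier handling or independent filtering, likelihood-ratio test for the joint comparison), limma 3.58.1 with voom, RLE factors, no filter, at least 10 counts in every library, the attached files, only the libraries compared, leaving out each library and, chosen after seeing the data, a replicate block for the 2 sets of titles in SCs, cHCs and OHCs (P7). For the share of counts they were TMM scaling, leaving out the member with the most counts, and a total without the 10 most abundant genes. For duplicates they were a prior count of 0.5 and RLE factors. The tests were tried on data simulated with the fitted dispersions, which do not imitate amplified reads, and no result given here rests on that trial.

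The 10 genes, the further lists and the tests were chosen with earlier results of these data known. Named from the 4 further lists were the genes with an FDR under 0.05, up to 6 per list by smallest FDR. The 5 genes of closest pattern had the highest Pearson's r, over 10 libraries of log2 CPM with a prior count of 2, with the mean standardized profile of the set. Symbols were matched to GENCODE vM1 (mm9), which held 96.2% of those listed, and RefSeq promoter windows of 8 of the 10 genes were used. Python 3.11.15, numpy 2.4.6, pandas 2.3.3, scipy 1.17.1 and matplotlib 3.10.9 were used for the rest. Single-cell data of the study were not analysed here.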

Additional observations from a re-analysis of the deposited data

How the results depend on the processing

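Of the 39 log2 fold changes given with a standard error, all kept their direction under DESeq2, limma-voom, RLE factors, the filter changes, the fit of only the cell types compared and each left-out library. With the files as attached to the records, 3 turned: *Fos* (2.32), *Jun* (1.12) and *Dnajb1* (1.88), all in cHCs against SCs. With these files 0 of the 10 genes passed in any comparison, so the joint count and those of OHCs (P22) against SCs or cHCs, of IHCs against OHCs (P22) and of OHCs (P7) against SCs all went to 0. With limma-voom 20 of the 39 no longer passed the threshold and 1 newly did, and with RLE factors all 39 stayed on their side. Leaving out SC replicate 11 or the OHC (P22) replicate labelled 21 each took the call from 12 of the 39, more than any other library. Only 25 of the 39 could be fitted with at least 10 counts in every library.

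Counts of genes called also moved as follows. DESeq2 gave 1 (cHCs against SCs), 6 (OHCs (P7) against SCs), 1 (OHCs (P7) against cHCs), 5 (OHCs (P22) against OHCs (P7)) and 3 (IHCs against OHCs (P7)). Over all 16891 genes tested DESeq2 called 1771, 2683, 1123, 1631 and 1327 in these comparisons, in this order. Limma-voom gave 3 (joint), 1 (cHCs against SCs), 1 (OHCs (P7) against SCs), 2 (OHCs (P22) against SCs), 1 (OHCs (P22) against cHCs) and 1 (IHCs against OHCs (P22)). Over all genes tested limma-voom called 2273, 1065, 1172, 1897, 930 and 299, in this order. With no filter the counts were 3 (cHCs against SCs), 6 (OHCs (P7) against SCs), 2 (OHCs (P7) against cHCs), 5 (OHCs (P22) against OHCs (P7)) and 4 (IHCs against OHCs (P7)). With at least 10 counts in every library, only *Egr1* and *Jun* of the 5 genes called remained in the test, and the counts were 2 in the joint test, in OHCs (P22) against SCs, cHCs and OHCs (P7), and in IHCs against OHCs (P22). With only the cell types compared, they were 2 (OHCs (P22) against cHCs) and 1 (IHCs against OHCs (P22)). With single libraries left out, they ran from 5 to 6 (joint), 0 to 1 (cHCs against SCs), 1 to 5 (OHCs (P7) against SCs), 5 to 6 (OHCs (P22) against SCs), 2 to 6 (OHCs (P22) against cHCs), 0 to 3 (OHCs (P22) against OHCs (P7)) and 1 to 6 (IHCs against OHCs (P22)). The cause of these shifts was not tested, apart from genes that a filter removes.

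The mean share of counts on the 10 genes was 0.105% in cHCs, 0.0193% in OHCs (P7) and 0.00260% in OHCs (P22). It became 0.0880% in cHCs and 0.00344% in OHCs (P22) with TMM scaling, 0.290% in cHCs and 0.0644% in OHCs (P7) with the attached files, and 0.0407%, 0.00908% and 0.00223% without *Egr1*. With the 10 most abundant genes out of the total it became 0.143%, 0.0282% and 0.00392%. The median duplicate difference of cHCs, 0.91, became 4.84 with the attached files.

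Duplicates and a common dispersion of 1.12 limit every call, and in OHCs (P22) *Fos* rested on 15 counts in both libraries together and *Ier2* on 1.

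The cell types share no replicate numbers, but the titles of SC replicate 12, cHC replicate 13 and OHC (P7) replicate 15 carry a sample number that those of SC replicate 11, cHC replicate 16 and OHC (P7) replicate 14 lack, and the latter libraries were the deeper in each cell type. Over 16891 genes, the differences between the sets had Pearson's r of 0.033 (SCs and cHCs), 0.040 (SCs and OHCs (P7)) and -0.019 (cHCs and OHCs (P7)). Of the 10 genes, 5, 5 and 4 had differences of the same sign in these pairs, in this order. A correlation over all genes cannot show an effect of the set that is limited to few genes. With the set as a replicate block, chosen after seeing the data, the counts of the 10 genes were 5 (joint), 5 (OHCs (P22) against SCs), 4 (OHCs (P22) against cHCs), 5 (IHCs against OHCs (P22)), 2 (OHCs (P7) against SCs) and 0 in the other comparisons. Under the block 4 of the 39 log2 fold changes no longer passed: *Junb* in OHCs (P22) against cHCs (edgeR FDR = 0.0534), *Dnajb1* in cHCs and in OHCs (P7) against SCs, and *Bag3* in OHCs (P22) against SCs.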
